A study of Zea mays with 112 samples.

Results

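The maize homeodomain factors HB96, HB91, HB118, OCL1 and OCL5A were chosen by title, and their 5 peak lists made up 5 of the 112 lists of the series. Binding sites of transcription factors were mapped in vitro by ampDAP-seq (DNA affinity purification sequencing with a PCR-amplified library). Each factor was produced in wheat germ extract with a HaloTag, fixed to beads and incubated with amplified leaf DNA of the inbred line B73, and the bound fragments were sequenced. The amplified DNA carries neither nucleosomes nor methyl groups, and no cell, treatment or genotype differed between the lists. There was 1 list per factor and no replicate, so the intervals given below are 95% Wilson intervals of counting error only. The read depth behind each list was not examined.

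Homeodomain leucine-zipper (HD-ZIP) proteins are found in plants and bind DNA as dimers through a homeodomain followed by a leucine zipper. Their class IV members also carry a START lipid-binding domain, act mainly in the epidermal cell layer, and are known to bind the L1 box, an AT-rich element with the core TAAATG that lies in the promoters of epidermal genes. OCL stands for outer cell layer, and OCL1 is a class IV factor expressed in the protoderm, the outer cell layer of the maize embryo. The study's motif table placed all 5 factors in the HD-ZIP family and gave no class for any of them.

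The motifs found by the study from these same peaks are printed here because HB96 stands apart from the other 4 in them, as it does in the sites. They are read 5′ to 3′, with the 7-letter word TTAAATG in capitals where it occurs, n for a position with several bases, and the OCL5A and HB118 motifs turned to the other strand.

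HB96: ctattcaccatcactattca
OCL1: gatTTAAATGct
OCL5A: ganTTAAATGnt
HB91: atganTTAAATG
HB118: aaTTAAATGct

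The motif of HB96 had 20 letters and did not hold the word on either strand, whereas the motifs of the other 4 factors had 11 or 12 letters and all held it. The word includes the TAAATG core of the L1 box. As the motifs came from the same peaks, they are no independent evidence for the comparisons of sites, and no genome of build B73 v4 was at hand to search the peaks for the word.

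The lists differed in size. HB96 had 25826 peaks, OCL1 114947, OCL5A 233664, HB91 211196 and HB118 74428. By peak number, OCL5A held rank 2, HB91 rank 5 and HB96 rank 93 of the 112 lists. The 5 lists had a median of 114947 peaks, against 73597 in the other 107 lists, and did not differ from them beyond the spread between lists (difference of medians 41350, adjusted p = 0.651, exact permutation test of the rank sum, two-sided, 3 measures). The 5 are different proteins, and without HB96 the difference of medians was 89474.5 (adjusted p = 0.144, the same exact permutation test). The share of peaks with a −log10 q of 10 or more was 10.7% in HB96, 19% in OCL1, 35.3% in OCL5A, 31.9% in HB91 and 23.6% in HB118. The highest peak signal, the caller's measure of peak height, was 202 in HB96, 423.8 in OCL1, 782.7 in OCL5A, 728.3 in HB91 and 560 in HB118. The signals are not set to a common depth and were used only to order peaks within a list.

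Sharing was the percentage of the 5000 peaks of highest signal of a list that had a summit of the top 5000 of the other list within 100 bp, averaged over both directions. HB96 shared 0 of its top 5000 peaks with each of OCL1, OCL5A, HB91 and HB118. The interval of each of these 0 values, counted over both directions, reached up to 0.0384%. OCL1 and HB91 shared 55.71% (54.7 to 56.7%), the highest value among the 5 factors. OCL5A and HB91 shared 50.39%, OCL5A and HB118 47.5%, OCL1 and OCL5A 45.59%, OCL1 and HB118 40.45%, and HB91 and HB118 39.43% (38.5 to 40.4%). OCL1 and OCL5A, which carry the same name stem, therefore shared less with each other than either did with HB91.

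**Figure D1:**
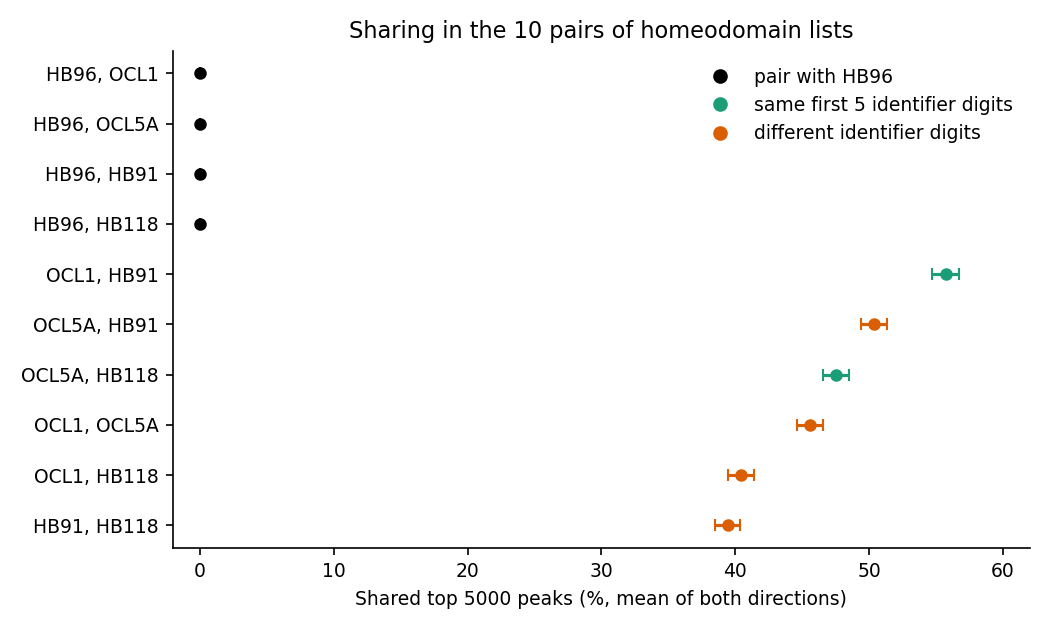
Sharing of the top 5000 peaks (%, mean of both directions, linear axis) in the 10 pairs of homeodomain lists, with pairs that include HB96 at the top. Points are pair values and bars are 95% Wilson intervals; the 4 pairs with HB96 lie at 0 and the other 6 between 39.43% and 55.71%.

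Sharing of HB96 averaged 0% over its 4 pairs, and sharing among the other 4 factors averaged 46.5% ± 6.14 (SD over 6 pairs that reuse the same 4 lists). HB96 had the lowest mean of the 5 factors. Its difference was known before it was set against the other 4, so this place is a description. A permutation test of 1 list against 4 could not pass 0.05 and could not decide the question. In all, 6 of the 10 homeodomain pairs shared 20% or more, beside 6.52% of all 6216 pairs of lists in the series. These 6 pairs held ranks 85 (OCL1 with HB91), 127 (OCL5A with HB91), 149 (OCL5A with HB118), 160 (OCL1 with OCL5A), 190 (OCL1 with HB118) and 199 (HB91 with HB118) among all pairs, and the median of all pairs was 0.08%.

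The names of the deposited lists carry a library identifier, whose digits the labels do not explain and which is absent for 5 of the 112 lists. OCL1 and HB91 had the same first 5 digits, as did OCL5A and HB118. The 2 pairs with the same digits averaged 51.6% and the 4 pairs with different digits 44% (39.43 to 50.39%). Among the lists with an identifier, EREB65, an AP2/ERF factor, had the same first 5 digits as HB96 and shared 11.6% with it. Whether these digits mark a batch was not tested, and if they do, batch and factor cannot be told apart for HB96.

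Agreement was higher once the rank limit was dropped in 1 of the lists. When the top 5000 peaks of a list were set against all peaks of the other list, between 81.3% and 96.2% were recovered in every direction among OCL1, OCL5A, HB91 and HB118. Of the top peaks of HB96, only 0.34% had a summit of OCL1, 1.64% of OCL5A, 1.02% of HB91 and 0.08% of HB118 within 100 bp. In the other direction, 0.06 to 0.2% of the top peaks of these 4 factors had a summit of HB96.

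Recovery fell along the ranks in every pair of the 4 lists. Among OCL1 peaks, 97.8% of ranks 1 to 1000 were found in OCL5A and 55.6% of ranks 100001 to 114947. In HB118, the smallest of the 4 lists, 93.6% of OCL1 peaks of ranks 1 to 1000 and 18.5% of ranks 100001 to 114947 were found. Of HB118 peaks, 91.0% of ranks 1 to 1000 and 66.5% of ranks 50001 to 74428 were found in OCL5A, and 83% and 43.2% of the same classes in OCL1. For HB96 no such slope was seen in OCL1 peaks, of which 0.2% were found in HB96 at ranks 1 to 1000 and 0.194% at ranks 100001 to 114947. Among HB96 peaks the shares were low and rose from ranks 1 to 1000 to ranks 20001 to 25826. They rose from 0.1% to 1.29% in OCL1, from 1.7% to 3.23% in OCL5A, from 0.5% to 2.85% in HB91 and from 0% to 0.772% in HB118.

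**Figure D2:**
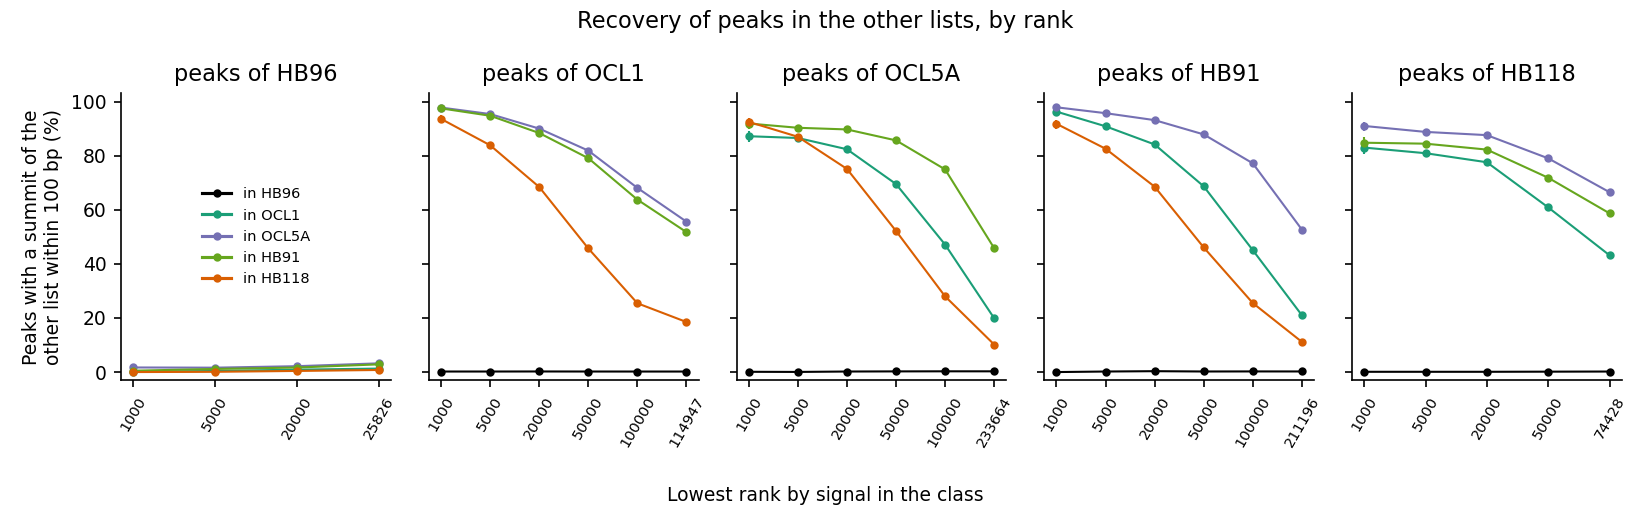
Percentage of the peaks of each list (panels, HB96 first) with a summit of another list (colours) within 100 bp, by class of rank by signal from the strongest (left) to the weakest (right); the axis gives the lowest rank of each class and bars are 95% Wilson intervals. Curves among OCL1, OCL5A, HB91 and HB118 start at 83% or above and fall, and those for HB96 stay near 0.

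Signal and the number of lists at a site moved together. OCL5A peaks found in all 3 of OCL1, HB91 and HB118 had a median signal of 83.7, those in 2 of them 50, those in 1 of them 34, and those in none 26.1. The same order held in OCL1 (41, 28.2, 24.7 and 22.9), in HB91 (70.1, 45.3, 32 and 25.6) and in HB118 (32, 24, 21.9 and 19.6). Peaks found in all 3 other lists made up 81.4% of the top 5000 of OCL1, 74.5% in OCL5A, 77.3% in HB91 and 70.5% in HB118.

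To describe common sites, all summits of the 5 lists were chained into loci wherever neighbours lay within 100 bp, which gave 341004 loci. HB96 was present at 25795 loci and was alone at 24994 of them (96.9%). Lists outside the 5 were not chained in this way, so no such share is at hand for them. OCL1, OCL5A, HB91 and HB118 together occupied 316010 loci, and 801 of these (0.253%) also held HB96. All 4 factors were present at 35749 loci (11.3% of the 316010), 3 of them at 50650, 2 at 81567 and 1 at 148044. HB96 was found at 83 of the 35749 loci with all 4 (0.232%). For lists outside the 5, the shares of 0.253% and 0.232% have no counterpart here.

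The share of loci that held all 4 factors fell with list size. This order follows from the count, as the same 35749 loci were divided by the loci of each list. Loci with all 4 made up 51.3% of the loci of HB118, 32.4% of those of OCL1, 17.7% of those of HB91 and 16% of those of OCL5A. Among the loci with 3 of the 4, HB118 was missing at 34743, OCL1 at 10462, HB91 at 3613 and OCL5A at 1832. The share of its loci held alone was highest for OCL5A (31%), followed by HB91 (26.8%), OCL1 (14.4%) and HB118 (12.3%). List size was not separated from the factor in these counts.

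**Figure D3:**
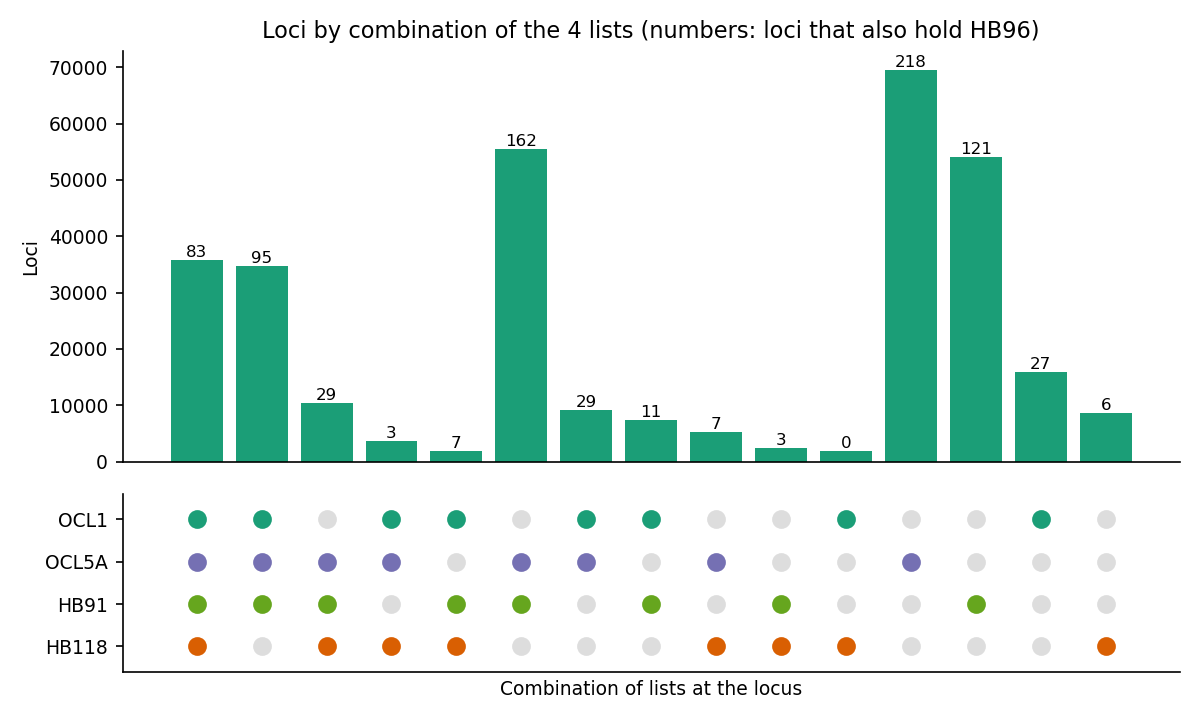
Number of loci (bars, linear axis from 0) for each combination of OCL1, OCL5A, HB91 and HB118, marked by filled dots below; the number above each bar counts loci that also held HB96. All 4 factors met at 35749 loci, 83 of them with HB96.

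Summits of the loci with all 4 factors spanned a median of 73 bp. Exactly 4 peaks were held by 67.9% of these loci, with a median span of 45 bp. Chaining within 100 bp limits such spans, and no other lists were chained for comparison. HB96 loci lay on every chromosome at 11.7 to 13 per Mb, and loci with all 4 factors at 16.2 to 17.3 per Mb. Of the 35749 loci, 13373 (37.4%) held no summit of any of the other 107 lists and 388 (1.09%) held 10 or more of them. Signals of the 4 factors rose together across these loci. At the 24262 loci with 1 peak of each, Spearman's rho between signals ran from 0.448 (HB91 and HB118) to 0.742 (OCL5A and HB91), as a description across sites of the same 4 libraries.

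The strongest common loci were ordered by the worst of the 4 ranks. At 20 loci all 4 factors had a peak among their 100 strongest, at 186 among their 1000 strongest and at 1148 among their 5000 strongest. The first lay on chromosome 1 at 299151370 to 299151486 (B73 v4) and held rank 1 of OCL1, rank 10 of OCL5A, rank 4 of HB91 and rank 3 of HB118. Its main summits were at 299151486 for OCL1, 299151483 for both OCL5A and HB91, and 299151477 for HB118, and 6 other lists had a summit there. The second, on chromosome 5 at 31789170 to 31789424, held ranks 5, 2, 3 and 12 of OCL1, OCL5A, HB91 and HB118.

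Loci 3 and 5 in this order repeated the summit order of the first. The third, on chromosome 1 at 31696261 to 31696334, had its summits at 31696334 for OCL1, 31696331 for OCL5A and HB91, and 31696325 for HB118. The fifth, on chromosome 1 at 249082186 to 249082409, had them at 249082256 for OCL1, 249082253 for OCL5A and HB91, and 249082247 for HB118. The fourth, on chromosome 9 at 39067832 to 39067932, held rank 3 of OCL1, 14 of OCL5A, 25 of HB91 and 1 of HB118 and no summit of any other list. Which genes lie beside these loci was not analysed here, as no annotation of the build was at hand.

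Distances between shared summits were short and took a few preferred values. OCL5A and HB91 had their summits at the same base at 45.3% of 2514 shared top sites, with a median distance of 3 bp. OCL1 lay most often 3 bp from OCL5A (28.0% of 2279 sites, median 8 bp) and 3 bp from HB91 (25.2% of 2777 sites, median 14 bp). HB118 lay most often 8 bp from OCL1 (14.7% of 1981 sites, median 17 bp) and 6 bp from both OCL5A (13.3% of 2338 sites, median 27 bp) and HB91 (17.4% of 1946 sites, median 25 bp). Between 36.4% and 54.6% of shared top sites lay within 10 bp in the 6 pairs. The 6 pair medians had a median of 15.5 bp, against 18 bp in the 399 other pairs of the series that shared 20% or more, and moved to 8 bp without HB118 and to 25 bp without OCL1. The most frequent distance covered a median of 21.3% of sites in the 6 pairs, against 34.1% in the 399 others.

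HB96 could be compared only over all peaks, since no top peak was shared. From the summits of the other factor to the nearest HB96 summit, the median distance was 42 bp for OCL1 (229 sites), 50.5 bp for OCL5A (610 sites), 43 bp for HB91 (485 sites) and 41.5 bp for HB118 (112 sites). Between 7.42% and 13.4% of these sites lay within 10 bp. Offsets of 10 bp or less in either direction are 21 of the 201 possible ones, or 10.4%.

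**Figure D4:**
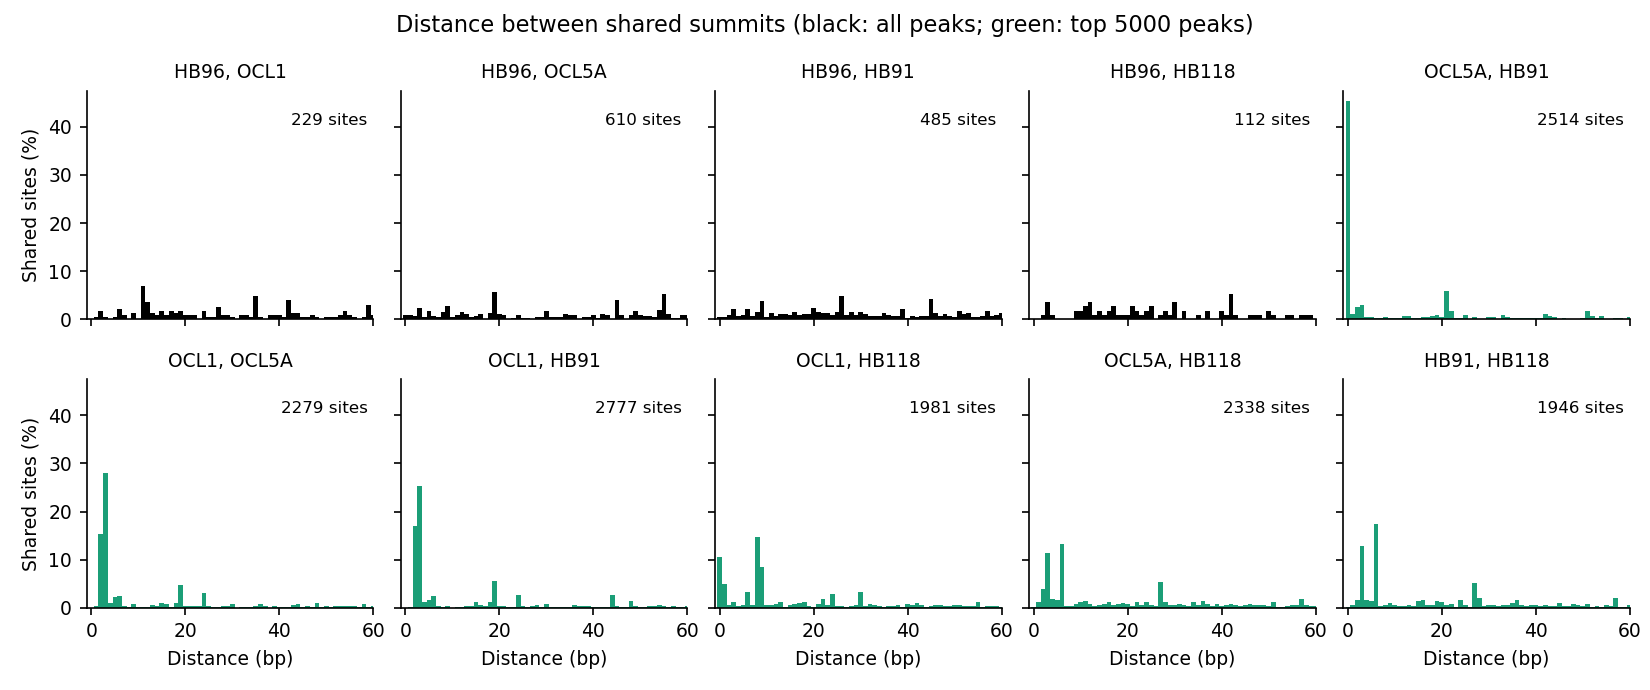
Distribution of the absolute distance (bp) between shared summits, as percentage of shared sites, for the 4 pairs with HB96 (black, all peaks) and the 6 pairs of the other factors (green, top 5000 peaks); distances above 60 bp are not drawn. OCL5A and HB91 have 45.3% of sites at 0 bp, the other green panels peak between 3 and 8 bp, and no black panel has a bar above 6.99%.

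The offsets of the 4 factors were also read together, at the 24262 loci with 1 peak of each, with mirror images counted as 1 pattern. The most frequent pattern, at 1631 loci (6.72%), had HB118 on the OCL1 summit and OCL5A and HB91 together 3 bp away. The second, at 1341 loci (5.53%), had OCL5A and HB91 at 2 bp and HB118 at 8 bp from OCL1 on the same side. The pattern of loci 1, 3 and 5 above, with OCL5A and HB91 at 3 bp and HB118 at 9 bp, held place 4 with 507 loci (2.09%). In total 10909 patterns were seen, and the first 5 of them covered 18% of the loci. OCL5A and HB91 shared the same base at 49.9% of the loci, and all 4 summits lay within 10 bp at 29.9%.

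Neighbouring summits of the same list also recurred at certain distances. Of neighbours within 400 bp, the most frequent distances were 132 bp (604 times) and 135 bp (542) in OCL1, 156 bp (956) and 135 bp (944) in OCL5A, and 135 bp (1364) and 132 bp (1008) in HB91. In HB118 they were 162 bp (248) and 135 bp (245), and in HB96 the most frequent was 400 bp (41). Distances of 132, 135 or 156 bp made up 0.516% of such neighbours in HB96, against 7.38% in OCL1, 6.19% in OCL5A, 7.86% in HB91 and 3.01% in HB118. The other 107 lists ran from 0 to 5.74% with a median of 1.08%. The distances were picked because each was frequent in 1 or more of OCL1, OCL5A and HB91, so these shares are a description. In OCL1, 156 bp was seen only 118 times.

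Private sites were top 5000 peaks with no summit of another list within 100 bp. Of the top peaks of HB96, 98% had no summit of OCL1, OCL5A, HB91 or HB118. The corresponding share with no summit of the other 4 homeodomain factors was 0.88% in OCL1 (44 peaks), 1.46% in OCL5A (73), 0.62% in HB91 (31) and 3.4% in HB118 (170). The 98% is not given here for the other 107 lists. Little overlap with OCL1, OCL5A, HB91 and HB118 was not particular to HB96. This was seen in sharing between top 5000 peaks, a different measure from the 98%, which used all peaks of the 4 factors. No list outside the 5 shared more than 1.97% with any of these 4. Against all other lists of the series, HB96 had 14 private top peaks (0.28%, 0.167 to 0.469%). OCL1 had 23 (0.46%), OCL5A 60 (1.20%), HB91 18 (0.36%) and HB118 104 (2.08%, 1.72 to 2.51%). The order turned when the other lists were held to a −log10 q of 10 or more, with 8.04% in HB96 and 0.68 to 3.66% in the other 4. The median was 0.46% in the 5 homeodomain lists and 0.44% in the other 107 lists, with no difference beyond the spread between lists (adjusted p = 0.945, exact permutation test of the rank sum, two-sided).

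Private sites depended on the distance allowed. With 200 bp in place of 100 bp, 96.9% of top HB96 peaks and 0.04 to 0.18% of those of the other 4 factors had no summit of the other homeodomain lists. With 50 bp the shares were 98.8% in HB96 and 6.52 to 15.9% in the other 4. The strongest peak in no other list was at chromosome 2, 192276578 in HB96 (rank 2426, signal 58), with the nearest summit of another list 140 bp away. It was at chromosome 2, 236120920 in OCL1 (rank 726, signal 140.8), at chromosome 7, 46184137 in OCL5A (rank 257, signal 345.6), at chromosome 4, 87052051 in HB91 (rank 449, signal 254.2) and at chromosome 2, 236152793 in HB118 (rank 23, signal 362.9). Another list had a summit 132, 106, 108 and 103 bp from these 4 positions.

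HB96 also differed from the other 4 in the number of outside lists at its sites. At its top 5000 sites a median of 15 of the 107 lists outside the 5 had a summit (quartiles 10 and 22), against a median of 1 for OCL1, OCL5A, HB91 and HB118 each. At least 10 such lists met at 75.5% of the top HB96 sites (74.3 to 76.7%), against 1.04% in OCL1, 0.66% in OCL5A, 1.34% in HB91 and 0.46% in HB118. None was found at 0.28% of the top HB96 sites, against 27.4% in OCL1, 39.2% in OCL5A, 25.4% in HB91 and 46.6% in HB118. The medians of the 107 lists ran from 0 to 22 around a median of 7, with 22 lists at or above HB96 and 10 at or below the 4 other homeodomain factors. With the outside lists held to a −log10 q of 10 or more, the median was 5 for HB96 and 0 for each of the other 4. No value in the files checks that the HB96 list comes from the HB96 protein, so the contrasts given here are those of the list labelled HB96, and the part of the library in them was not tested.

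**Figure D5:**
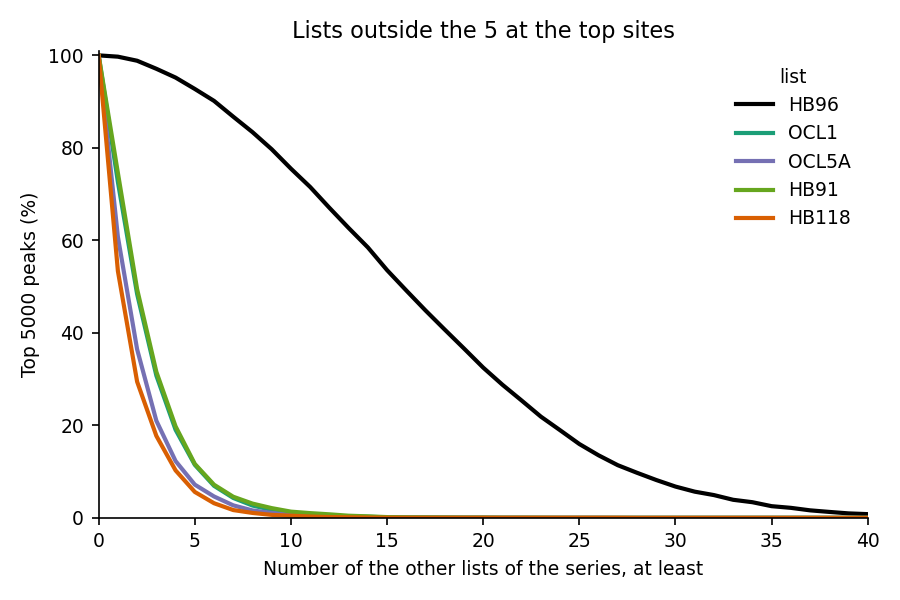
Percentage of the top 5000 peaks of each homeodomain list with at least the given number of the 107 lists outside the 5 within 100 bp. The HB96 curve is at 75.5% at 10 lists, and the curves of OCL1, OCL5A, HB91 and HB118 are between 0.46% and 1.34% there.

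The lists closest to HB96 were MADS53 (37%), GATA24 (32.2%) and SFB1 (30.3%), which are labelled with other factor families or with none. MADS53 had 43309 peaks, GATA24 26444 and SFB1 16079, against a median of 73597 in the 107 lists outside the 5. Whether list size plays a part in this sharing was not tested. In all, 11 of the 107 lists outside the 5 shared 20% or more with HB96, beside 6.52% of all 6216 pairs of lists in the series. These 11 lists came from 10 name stems and had 7965 to 44573 peaks. Their sharing with each other averaged 23.5%. No list outside the 5 reached 10% with OCL1, OCL5A, HB91 or HB118, the highest being 1.97% between HB91 and NACTF77, a NAC factor. NACTF109 and NACTF77 came next for OCL1 (1.42 and 1.41%), C3H11 for OCL5A (1%) and NACTF65 for HB118 (1.22%). Mean sharing with the 107 lists was 4.54% for HB96, against 0.0809 to 0.159% for the other 4 factors. The same mean is not given here for the 107 lists themselves.

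The summits of HB96 and these lists also took preferred distances. HB96 and MADS53 had the same base at 28.2% of 1848 shared top sites, HB96 and SFB1 lay 2 bp apart at 29.3% of 1516, and HB96 and ZAG2, a MADS-box factor, 1 bp apart at 30.0% of 1419. HB96 and GATA24 lay most often 12 bp apart (11.2% of 1608). With OCL1, OCL5A, HB91 and HB118 no top peak was shared, so only all peaks could be used. There the most frequent distance covered 4.74 to 6.99% of the 112 to 610 sites of each pair.

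The 3 strongest HB96 peaks were at chromosome 2, 138064736 (signal 202), chromosome 6, 154421691 (signal 179.6) and chromosome 2, 139078627 (signal 165). Summits of 28, 49 and 21 of the 107 other lists lay there, and none of OCL1, OCL5A, HB91 or HB118. The strongest locus with all 4 factors that also held HB96 was on chromosome 2 at 132732599 to 132732740. HB96 had rank 24975 there with a signal of 19, against rank 2545 for OCL1, 492 for OCL5A, 528 for HB91 and 307 for HB118. Its summit at 132732740 was the last of the 5.

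HB96 peaks near the other factors tended to rank lower among HB96 peaks. No factor of the 4 was near 25023 HB96 peaks, 1 was near 429, 2 near 203, 3 near 119 and all 4 near 52. The median HB96 rank was 12825 at the peaks near none, 14864 at those near 1, 15458 near 2, 17556 near 3 and 17494 near all 4.

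Top peaks of the 5 lists did not differ from those of the other lists in position along the chromosomes beyond the spread between lists. The outermost 25% at each end of chromosomes 1 to 10 held 52% of the top peaks in HB96, 53.3% in OCL1, 46.8% in OCL5A, 52.8% in HB91 and 46.4% in HB118. The median was 52% in these lists and 50.8% in the other 107 (adjusted p = 0.945, exact permutation test of the rank sum, two-sided). Over all peaks the direction turned (difference of medians −3.42 points, adjusted p = 0.077, the same exact permutation test). The share of all peaks was 50.2% in HB96 and 45.7 to 47.7% in the other 4, beside a median of 50.8% in the 107 lists. Close neighbours were rare in HB96, where 2.34% of peaks had another HB96 summit within 200 bp, against 13.6% in OCL1, 17.7% in OCL5A, 17.8% in HB91 and 19.7% in HB118. The median of the other 107 lists was 13.5%, and this share was not set against the number of peaks.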

How the data were processed

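Per the labels and the study's methods, the authors trimmed reads with Trimmomatic 0.39, aligned them to B73 v4 with Bowtie2 2.4.1, removed duplicates with Picard, and called peaks with GEM against a HaloTag control library, which was not analysed here. The deposited lists give 201 bp intervals centred on a summit, with a signal value and −log10 p and q. Signal ordered the peaks, and −log10 q was used for a stricter threshold of 10. No read counts were used, nor the quality statistics that the study gives for its libraries, so depth and its precision were not examined.

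All 112 lists were read with Python 3.11.15, NumPy 2.4.6, pandas 2.3.3 and SciPy 1.17.1. Sharing used the 5000 highest-signal peaks and 100 bp between summits. The 5 lists were set against the other 107 with an exact permutation test of the rank sum, adjusted (Benjamini-Hochberg) over 3 measures. The sites named were the 5 common loci with the best worst rank, the first of these with HB96, the strongest private peak of each list and the 3 strongest HB96 peaks. Lists outside the 5 were named where they were among the 3 that share most with a member; NACTF77, NACTF109, C3H11, NACTF65, ZAG2 and EREB65 were named after their values were seen. The members and measures were chosen with earlier results of these data known. The scripts' measures were tested on simulated lists. Alternatives were other numbers of peaks, distances, q thresholds, orders, sequences and left-out factors. The planned search of the peaks for motifs and comparison of proteins were not run, as no genome of the build or protein sequence was at hand. Of the study's tables, only the motifs, family and gene names were used.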

Additional observations from a re-analysis of the deposited data

Results flagged for a closer look

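Among the 5 homeodomain lists, 9 measures were checked for a list lying far from the others (Dixon's gap over range, critical value 0.71), and chance alone flags about 1 in 20 such checks. HB96 stood apart in 2 of them. Its mean sharing with the other 4 homeodomain lists was 0%, against 31.8 to 36.4% for those 4, with a gap of 0.875 of the range. Its median number of lists outside the 5 at the top sites was 15, against 1 for each of the others, with a gap of 1, the other 4 being tied. The difference of HB96 was known when the measures were chosen, and its zeros enter the means of the other 4, so both checks describe it again and are no further support. The share of HB96 peaks with a neighbour of the same list within 200 bp came closest among the others, with a gap of 0.647.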

How the results depend on the processing

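Mean sharing among OCL1, OCL5A, HB91 and HB118 (46.5%) was 39.98% with the top 1000 peaks, 51.02% with the top 10000, 49.1% with the top 5%, 53.9% with all peaks, 25.1% within 20 bp, 51.7% within 200 bp, 51.6% over pairs with the same and 44% over pairs with different identifier digits, and 44.5 to 50.6% when each factor was left out in turn. Mean sharing of HB96 with them (0%) was 0.0125% with the top 10000 and 0.783% with all peaks. HB96 lay below all 6 other pairs under each of the 10 alternatives of peaks, distance, threshold and order (difference −25.1 to −53.1 points). Of these alternatives, 1 could not move any value: leaving out loci of 20 or more factors, built from the top 5000 peaks of all lists. Such loci took in 267 top HB96 peaks (5.34%) and none of the other 4. The top 1000 peaks and the distance of 20 bp could not move the 0% of HB96 either. Both take only a part of the comparison that already gave 0. The number of loci with all 4 factors (35749) was 20947 with chaining within 50 bp, 12391 within 20 bp, 8628 at −log10 q of 10 or more and 1140 with the top 5000 peaks, and 36791 to 69808 when only 3 factors were required, highest without HB118. The percentage of loci of the 4 with HB96 (0.253%) was 0.128% within 50 bp, 0.0598% within 20 bp, 0.482% within 200 bp, 0.0101% at −log10 q of 10 or more, 0% with the top 5000 peaks and 0.220 to 0.255% with a factor left out. The median of the 6 pair offsets (15.5 bp) was 8 to 25 bp with a factor left out, highest without OCL1 and lowest without HB118, and 8.5 bp with all peaks. For HB96, offsets of shared top peaks could not be had; over all peaks, taken from HB96, the median over 4 pairs was 41.5 bp, also with mutually nearest summits only.

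The 3 comparisons of the 5 lists with the other 107 stayed above 0.05 under every alternative (adjusted p 0.077 to 0.991). The lowest was the share of all peaks in the outermost 25% at each end of the chromosomes, with a difference of medians of −3.42 points. The share of top peaks in no other list was 1.76% in HB96 and 3.12 to 11% in the 4 factors with a distance of 50 bp, and 5.84% in HB96 and 6.97 to 16.9% in the 4 over all peaks. With other lists held to −log10 q of 10 or more it was higher in HB96 (8.04%) than in the 4 (0.68 to 3.66%). The median number of lists at the top sites, under alternatives chosen after seeing the data, was 4 to 21 in HB96 and 0 to 2 in the other 4. The cause of these shifts was not tested. No paired analysis was possible because each factor had 1 list.

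Depth that was not examined, a single list per factor, and rank limits that cover 19.4% of HB96 but 2.14% of OCL5A limit all comparisons between lists.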
